A study of Mus musculus with 20 samples.

Results

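The 8 genes described here encode the proteins that break heme down and move it across membranes: the heme oxygenases Hmox1 and Hmox2, the biliverdin reductases Blvra and Blvrb, the heme transporters Flvcr1, Flvcr2 and Slc48a1, and Lrp1, the receptor that takes up heme bound to hemopexin. They were chosen by name from the 23420 genes of the count table. Of these, 6 were listed under their own symbol, and Flvcr1 and Flvcr2 were listed under the older symbols Mfsd7b and Mfsd7c. All 8 passed the expression filter, as did 13590 of all genes. RNA was measured in whole hearts of wild type male C57BL/6 mice aged 9 weeks, with 10 mice on a control diet and 10 on an iron-deficient diet that causes iron-deficiency anemia (IDA). The diets were given for 6 weeks from the age of 3 weeks. One label puts the iron of the deficient diet under 2 ppm, and another label puts it over that value. The question was how heme handling genes differ in the heart between the diets.

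Heme oxygenases open the heme ring and release iron, carbon monoxide and biliverdin, which the biliverdin reductases turn into bilirubin. Heme reaches cells with hemopexin or with hemoglobin bound to haptoglobin, and it crosses membranes through dedicated transporters. Transcription of Hmox1 is held back by Bach1, a repressor that heme itself releases from DNA, and is raised by Nrf2. In the heart, heme is needed for myoglobin and for the cytochromes of the respiratory chain.

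Hearts of IDA mice had higher levels of both biliverdin reductases, of Slc48a1 and of Hmox2, and lower levels of Flvcr1 and Flvcr2. At a Benjamini-Hochberg adjusted p below 0.05 in the quasi-likelihood test of edgeR, 4 of the 8 were called higher, 2 lower and 2 were not called. Among all tested genes, 35.0% were called higher, 32.5% lower and 67.5% in either direction, so the count among the 8 genes is near the background. By the study's rule of p below 0.01 with both edgeR and DESeq2, 4 were called higher and 1 (Flvcr2) lower, against 30.6% and 29.2% of all genes and 59.8% in either direction. These shares come from the present fits of all mice. With a mouse of each group left out, the study itself reported far fewer genes by this rule, most of them lower in IDA. The source of that difference was not tested. Fold changes in these hearts also followed gene length, as the 1359 shortest genes (median exonic length 881 bp) had a median log2 fold change of 0.34 and the 1359 longest (7761 bp) one of -0.53. For the 8 genes, each call is therefore given again after the trend on length was subtracted in every mouse, and after trends on length and GC content were subtracted. Both corrections remove any such trend, whatever its source. With the length correction 4 genes were called higher (Blvra, Blvrb, Slc48a1 and Lrp1) and 1 lower (Flvcr2), against 31.5% and 23.5% of all genes and 55.0% in either direction. With the length and GC correction the backgrounds were 28.2% higher, 19.8% lower and 48.0% in either direction, the same 4 genes were called higher, and Hmox2 and Flvcr2 were called lower. Blvra, Blvrb, Slc48a1 and Flvcr2 kept direction and call in all 3 fits.

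**Figure D1:**
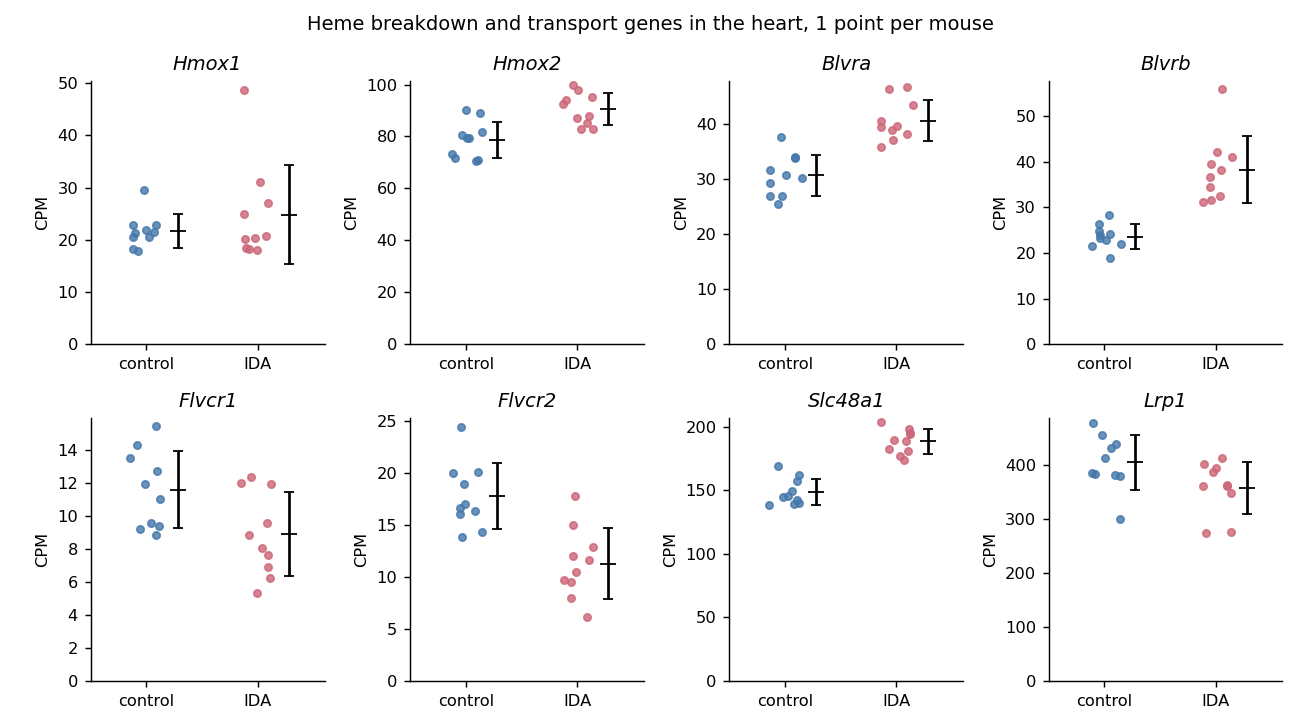
CPM (counts scaled to library size, y axis from 0) of the 8 genes in each control and IDA mouse. Points are mice, and the bar beside them is the mean with its SD (n = 10 per group). All IDA mice lie above all controls for Blvrb (lowest 31.1 against highest 28.4) and Slc48a1 (lowest 173.8 against highest 168.8).

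**Figure D2:**
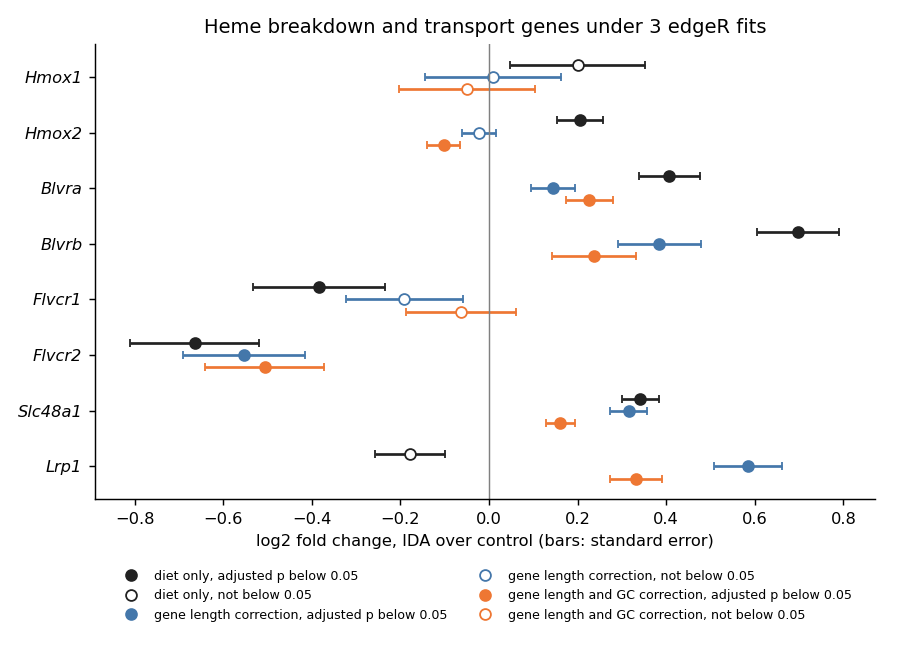
Log2 fold change of IDA over control (x axis) of the 8 genes under 3 edgeR fits, with standard errors as bars and filled points where the adjusted p was below 0.05. Lrp1 moves from -0.18 to 0.59 with the length correction, and Flvcr2 stays between -0.66 and -0.51.

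**Figure D3:**
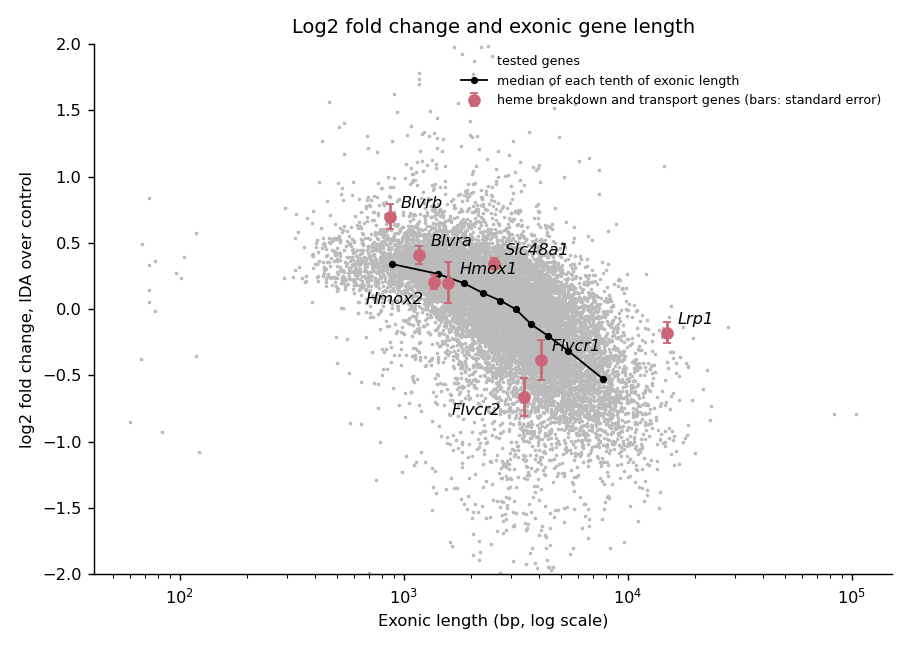
Log2 fold change (y axis) against exonic length in bp (log scale) for the tested genes (grey) and the 8 heme genes (red, with standard errors). The black line joins the medians of 10 groups of 1359 genes ordered by length. There are 32 genes beyond 2 in either direction that lie outside the axis. Blvrb is the shortest of the 8 at 865 bp and Lrp1 the longest at 14891 bp.

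Promoter sequences are shown for 3 of the 4 genes whose call held in all 3 fits, as the stretch where regulators of heme genes could bind. They were taken from RefSeq on GRCm38.p6, in which 6 of the 8 genes had entries, and each covers the 250 bases before the start. The letters searched on both strands were TGACNNNGC, the core of the antioxidant response element that Nrf2 and Bach1 recognise, ACGTG, the core of the hypoxia response element, and CACGTG, an E-box that contains ACGTG. Capitals mark a match. Of 32851 promoters with this length, 10.2% held TGACNNNGC, 16.6% ACGTG and 6.02% CACGTG. Blvra (chr2:127070407-127070656, plus strand) held the antioxidant core on the opposite strand, beginning 49 bases before the start. Flvcr2 (chr12:85746289-85746538, plus strand) held CACGTG at 20 bases before the start, which also reads ACGTG on both strands. Blvrb (chr7:27447728-27447977, plus strand) held none of the 3 in this window. RefSeq lists a second Blvrb start, not printed here, whose window (chr7:27452168-27452417, plus strand) held ACGTG at 123 bases before it. Among the genes not printed, the antioxidant core was also found in Flvcr1, at 151 bases before its start, and in Lrp1, at 160 bases. The Hmox2 windows did not hold it.
Blvra: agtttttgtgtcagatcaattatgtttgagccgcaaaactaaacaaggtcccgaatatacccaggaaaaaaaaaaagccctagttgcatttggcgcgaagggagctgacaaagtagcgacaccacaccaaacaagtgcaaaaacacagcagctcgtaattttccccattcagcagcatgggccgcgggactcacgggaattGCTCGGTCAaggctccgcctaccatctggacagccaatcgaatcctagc
Blvrb: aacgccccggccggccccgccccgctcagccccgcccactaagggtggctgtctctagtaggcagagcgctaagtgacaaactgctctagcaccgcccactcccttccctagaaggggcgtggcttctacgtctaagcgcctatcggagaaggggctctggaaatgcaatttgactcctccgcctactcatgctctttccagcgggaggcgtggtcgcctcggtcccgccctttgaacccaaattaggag
Flvcr2: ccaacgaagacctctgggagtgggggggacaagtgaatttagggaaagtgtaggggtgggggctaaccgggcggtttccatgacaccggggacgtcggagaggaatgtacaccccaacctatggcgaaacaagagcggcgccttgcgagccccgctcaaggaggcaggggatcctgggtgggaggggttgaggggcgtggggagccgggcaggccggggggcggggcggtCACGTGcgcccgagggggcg

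Per exonic length, the genes spanned a wide range of levels in control hearts. FPKM, a count scaled by exonic length and library size, averaged 58.9 ± 4.16 (SD, n = 10) for Slc48a1 and 57.6 ± 5.19 for Hmox2, and the mice of these neighbours overlapped. Blvrb (27.3 ± 3.07), Lrp1 (27.2 ± 3.37) and Blvra (26.2 ± 3.20) formed the next group and overlapped each other in turn. Hmox1 followed at 13.8 ± 2.08, then Flvcr2 at 5.18 ± 0.92 and Flvcr1 at 2.84 ± 0.58, each without overlap with the gene above it. In IDA hearts Blvrb reached 44.3 ± 8.47 FPKM and Blvra 34.7 ± 3.19, while Lrp1 lay at 24.0 ± 3.26.

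Hmox1 (chromosome 8, 75093618 to 75100593, mm10) encodes the inducible heme oxygenase. Its level ran from 17.8 CPM over a median of 21.4 to 29.6 CPM in control hearts, and from 18.1 over 20.5 to 48.7 CPM in IDA hearts. The groups overlapped widely, 6 of 10 IDA mice lay below the control mean, and the median was lower in IDA although the mean was higher (24.8 ± 9.44 against 21.7 ± 3.27 CPM, SD, n = 10 each). On the log2 scale IDA exceeded control by 0.20 ± 0.15 (SE), with an adjusted p of 0.251 in edgeR's quasi-likelihood test. Its 95% interval of -0.12 to 0.52 leaves room for a change in either direction. Without IDA replicate 5, the mouse at 48.7 CPM, the difference was 0.034. With library size as a covariate it was 0.44 (adjusted p = 0.0197 in edgeR), and total read pairs were lower in IDA mice (median 6806177) than in controls (7902932). After subtraction of the length trend it was 0.0087 (adjusted p = 0.968, edgeR).

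Hmox2 (chromosome 16, 4726361 to 4766249) encodes the constitutive heme oxygenase and had more reads than Hmox1 in every mouse. Control hearts lay between 70.7 and 90.0 CPM (median 79.5), and IDA hearts between 82.7 and 99.9 CPM (median 90.2). All 10 IDA mice lay above the control mean and 5 above every control. The log2 fold change was 0.21 ± 0.05 (adjusted p = 0.00126, edgeR). It did not hold with the length correction (-0.024, adjusted p = 0.623) and turned to -0.10 with the length and GC correction (adjusted p = 0.0272). With library size as a covariate it was 0.096 and not called (adjusted p = 0.0786, edgeR). Of its 1366 exonic bases, 399 (29.2%) are shared with Cdip1 on the other strand, and counting without strand cannot tell the reads of that stretch apart. Within a mouse, the log2 ratio of Hmox1 to Hmox2 averaged -1.86 ± 0.26 in controls and -1.93 ± 0.50 in IDA, a difference of -0.071 (permutation test, two-sided, 100000 resamples, adjusted p = 0.709 over 3 ratios).

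Blvra (chromosome 2, 127070657 to 127097084), the reductase that makes bilirubin from the main biliverdin isomer, rose in IDA hearts. Control hearts lay between 25.4 and 37.5 CPM (median 30.4) and IDA hearts between 35.7 and 46.7 CPM (median 39.5). The groups overlapped only at their edges, with all 10 IDA mice above the control mean and 8 above every control. The log2 fold change was 0.41 ± 0.07 (adjusted p = 2.1e-05, edgeR), or 1.33-fold. It was 0.14 with the length correction (adjusted p = 0.0168) and 0.23 with the length and GC correction (adjusted p = 0.00128). Blvra is short, at 1170 exonic bp.

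Blvrb (chromosome 7, 27447978 to 27465981) encodes the second reductase, which also reduces flavins and is abundant in red cells. Controls ranged between 18.8 and 28.4 CPM (median 23.7) and IDA hearts between 31.1 and 55.9 CPM (median 37.4). The groups did not overlap. In 4.97% of all tested genes every IDA mouse lay above every control, in 6.28% every one lay below, and in 11.3% the groups were apart in either direction. IDA exceeded control by 0.70 ± 0.09 on the log2 scale (adjusted p = 1.4e-06, edgeR), or 1.62-fold. It was 0.38 with the length correction (adjusted p = 0.00142) and 0.24 with the length and GC correction (adjusted p = 0.0421). Without IDA replicate 9, the highest mouse, the log2 fold change was 0.62.

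Most of the tested erythroid markers were called higher in IDA, as Blvrb was. Of 17 erythroid markers in the file, 7 passed the filter, with 6 called higher and 1 called lower in IDA, and 4 were at 0 in every mouse, among them both alpha globin entries. Whether reads that match more than 1 gene copy were left out of these counts was not tested, so a 0 need not mean absent RNA. The summed level of the 17 markers lay between 420 and 513 CPM in controls and between 543 and 1031 CPM in IDA, with no overlap. The 7 had a median log2 fold change of 0.49, and after the length correction 4 were called higher and 0 lower. The shares over all genes were 35.0% higher and 32.5% lower, and 31.5% and 23.5% after that correction. Slc4a1, the anion exchanger of the red cell membrane and named after its values were seen, averaged 2.74 CPM in controls and 45.2 CPM in IDA. When the mean of these markers was added as a covariate, Blvrb differed by 0.27 on the log2 scale (adjusted p = 0.0485, edgeR), and with the length correction as well it was -0.081 (adjusted p = 0.576). The marker mean itself did not overlap between the diets (3.89 to 4.59 against 4.79 to 6.39 on the log2 CPM scale), so the covariate and diet are hard to separate. In whole hearts a change in the number of cells of a type and a change in RNA per cell cannot be told apart. Slc48a1 kept its value with that covariate (0.33, adjusted p = 0.000608).

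**Figure D4:**
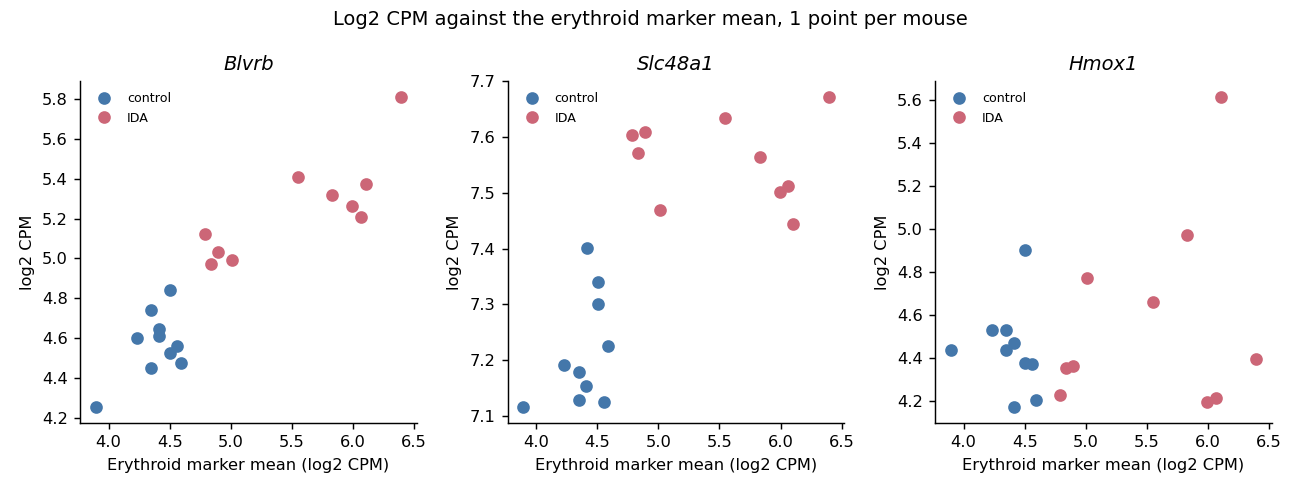
Log2 CPM (y axis) of Blvrb, Slc48a1 and Hmox1 against the mean log2 CPM of the 7 tested erythroid markers (x axis) in each control and IDA mouse. In IDA the marker mean splits into 4 mice up to 5.01 and 6 mice from 5.55, and Blvrb is highest in the mouse with the highest marker mean.

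Among the IDA mice the marker mean fell into a lower and a higher cluster, 4 mice up to 5.01 and 6 from 5.55, so no pooled correlation is given for it. Blvrb lay between 31.1 and 34.5 CPM in the 4 lower mice and between 36.6 and 55.9 CPM in the 6 higher mice, without overlap. The split was placed at the widest gap in the marker mean, after the values were known. That difference between the clusters was not tested, and the share of all genes apart in this way was not counted. Within the 6 higher mice, Blvrb and the marker mean had r = 0.52 (exact permutation p = 0.318) and rho = 0.20 (exact permutation p = 0.714). For the macrophage markers, which include the heme scavenging cells, Hmox1 had r = 0.69 in IDA (permutation p = 0.0205) and rho = 0.68 (permutation p = 0.0344), with adjusted p values of 0.329 and 0.551 over 32 relations. Without the 2 IDA mice farthest from the median, r was 0.37, so in IDA this relation rests on them. In controls r was 0.54 and rho 0.59 (permutation test, adjusted p = 0.506 and 0.609), and r was 0.52 without the 2 farthest mice. The macrophage marker mean overlapped between diets, at 5.57 to 5.77 in controls and 5.45 to 5.80 in IDA, with 7 of 15 markers higher and 4 lower, and 5 and 3 after the length correction, against the same shares over all genes. Its part in the Hmox1 values was not tested beyond a covariate, with which the log2 fold change was 0.18 (adjusted p = 0.170, edgeR).

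In uncorrected values Blvrb rose by more than Blvra. The log2 ratio of Blvra to Blvrb within a mouse was 0.37 ± 0.15 in controls and 0.10 ± 0.29 in IDA, and 9 of 10 IDA mice lay below the control mean. The difference was -0.27 (permutation test, two-sided, adjusted p = 0.0317). With the length correction it was -0.22 (permutation test, adjusted p = 0.109), and without single mice the adjusted p rose to at most 0.0648, passing 0.05 for 9 of the 20, IDA replicate 9 among them (-0.21).

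Flvcr1 (chromosome 1, 191005832 to 191026190) belongs to a family described as transporters of heme and of choline. It had the fewest reads of the 8 genes, between 36 and 124 read pairs per mouse. Control hearts lay between 8.82 and 15.4 CPM (median 11.5) and IDA hearts between 5.31 and 12.4 CPM (median 8.47). The groups overlapped, with 7 of 10 IDA mice below the control mean and 5 below every control. The log2 fold change was -0.38 ± 0.15 (adjusted p = 0.0265, edgeR). It was -0.19 with the length correction (adjusted p = 0.227) and -0.064 with the length and GC correction (adjusted p = 0.697). With library size as a covariate it was -0.19 and not called (adjusted p = 0.343, edgeR). The call was lost without control replicate 4 (-0.35) or 9 (-0.33) and without IDA replicate 6 (-0.34) or 10 (-0.32). With the erythroid covariate it was -0.73 (adjusted p = 0.0219, edgeR), and with the length correction as well it was -0.50 (adjusted p = 0.0896). Of its 4087 exonic bases, 814 (19.9%) are shared with the antisense gene A230020J21Rik, and counting used no strand.

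Flvcr2 (chromosome 12, 85746539 to 85813585), of the same family, was also lower in IDA hearts. Its level in controls lay between 13.9 and 24.4 CPM (median 16.8) and IDA hearts between 6.12 and 17.8 CPM (median 11.04). All 10 IDA mice lay below the control mean and 8 below every control. Its log2 fold change was -0.66 ± 0.15 (adjusted p = 0.000344, edgeR), or 0.63-fold. It was -0.55 with the length correction (adjusted p = 0.00176) and -0.51 with the length and GC correction (adjusted p = 0.00354). With the erythroid covariate it was -0.59 and not called (adjusted p = 0.0563, edgeR). The log2 ratio of Flvcr1 to Flvcr2 was -0.62 ± 0.30 in controls and -0.34 ± 0.52 in IDA, a difference of 0.28 that the permutation test did not call (two-sided, adjusted p = 0.235). Within the mice of the lower and of the higher library numbers in the column names it was 0.10 and 0.64 (exact permutation test, adjusted p = 0.737 and 0.107).

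Slc48a1 (chromosome 15, 97784365 to 97792692) encodes the transporter that lets heme leave endosomes and lysosomes for the cytosol. In controls it lay between 138.4 and 168.8 CPM (median 145.2) and IDA hearts between 173.8 and 203.8 CPM (median 189.4). The groups did not overlap. The log2 fold change was 0.34 ± 0.04 (adjusted p = 5.2e-07, edgeR), or 1.27-fold, and it held with the length correction (0.32, adjusted p = 2.3e-06) and with the length and GC correction (0.16, adjusted p = 0.000314). The coefficient of variation among mice was 7.07% in controls and 5.19% in IDA, the lowest of the 8 genes in each group. Of its 2526 exonic bases, 29 (1.15%) are shared with Hdac7 on the other strand.

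Lrp1 (chromosome 10, 127538158 to 127621148), a large endocytic receptor with many ligands besides hemopexin, had the most reads. Values in controls lay between 300.6 and 477.9 CPM (median 399.4) and IDA hearts between 274.6 and 413.4 CPM (median 361.9). The groups overlapped, with 9 of 10 IDA mice below the control mean and 2 below every control. Its log2 fold change was -0.18 ± 0.08 (adjusted p = 0.0516, edgeR). Its direction turned with the length correction, to 0.59 (adjusted p = 2.4e-06), and with the length and GC correction, to 0.33 (adjusted p = 6.9e-05). With DESeq2 the adjusted p was 0.0476. It was below 0.05 also without control replicate 1 (-0.22) or without IDA replicate 4 (-0.20), 5 (-0.20), 7 (-0.20) or 9 (-0.19). Lrp1 was called lower too with the library number range as a covariate (-0.22, adjusted p = 0.0097, edgeR) and with the replicate number as a block (-0.18, adjusted p = 0.00298). At 14891 bp, Lrp1 is longer than the median of the 1359 longest genes (7761 bp).

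The library numbers in the column names fall into a lower range (5 control and 7 IDA mice) and a higher range (5 control and 3 IDA mice), and no label says what the numbers stand for. Within the lower and higher numbers the log2 fold changes were 0.71 and 0.64 for Blvrb, 0.38 and 0.28 for Slc48a1, and -0.68 and -0.74 for Flvcr2, each called in both ranges by edgeR. For Blvra they were 0.39 and 0.43, called in both, but with the length correction they were 0.13 (adjusted p = 0.166, edgeR) and 0.16 (adjusted p = 0.159), called in neither. Hmox2 had 0.29 and 0.087 (adjusted p = 0.408, edgeR), and Flvcr1 -0.57 and -0.12 (adjusted p = 0.646), each called in the lower numbers only. Lrp1 had -0.13 (adjusted p = 0.0651, edgeR) and -0.38 (adjusted p = 0.0461), called in the higher numbers only. Hmox1 had 0.12 and 0.23, called in neither. Whether the fold changes differ between ranges was not tested.

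The other genes of heme capture and transport moved in both directions. Of 22 tested genes of that list, 12 were higher and 5 lower, with a median log2 fold change of 0.25 against 0.023 over all genes. Under the length correction 8 and 3 were called. The shares over all genes were 35.0% higher and 32.5% lower, and 31.5% and 23.5% with the length correction, and they are the background for each list that follows. Tspo, a mitochondrial outer membrane protein that binds porphyrins, rose by 0.54 on the log2 scale (SE 0.065, adjusted p = 5.4e-07, edgeR), by 0.22 with the length correction, and was not called with the length and GC correction (0.060, adjusted p = 0.260). Hebp2, a relative of the heme binding protein Hebp1, rose by 0.52, and by 0.39 and 0.49 with the corrections for length and for length and GC. Gapdh, which carries heme in the cell, rose by 0.41 at a mean of 7.72 CPM in controls, and was called with neither correction (0.15, adjusted p = 0.256, and 0.034, adjusted p = 0.816, edgeR). Whether copies of the gene took part of its reads was not tested. Abcc5 fell by 0.62 (-0.21 with each correction). Cd163, the macrophage receptor for haptoglobin and hemoglobin, fell from 66.2 ± 11.5 to 43.6 ± 10.3 CPM (log2 fold change -0.61, and -0.36 and -0.25 with the corrections). Hp, haptoglobin, was not called (log2 fold change 0.75, adjusted p = 0.0845, edgeR), and Hpx, hemopexin, was too low to test, with means of 0.48 and 1.15 CPM.

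**Figure D5:**
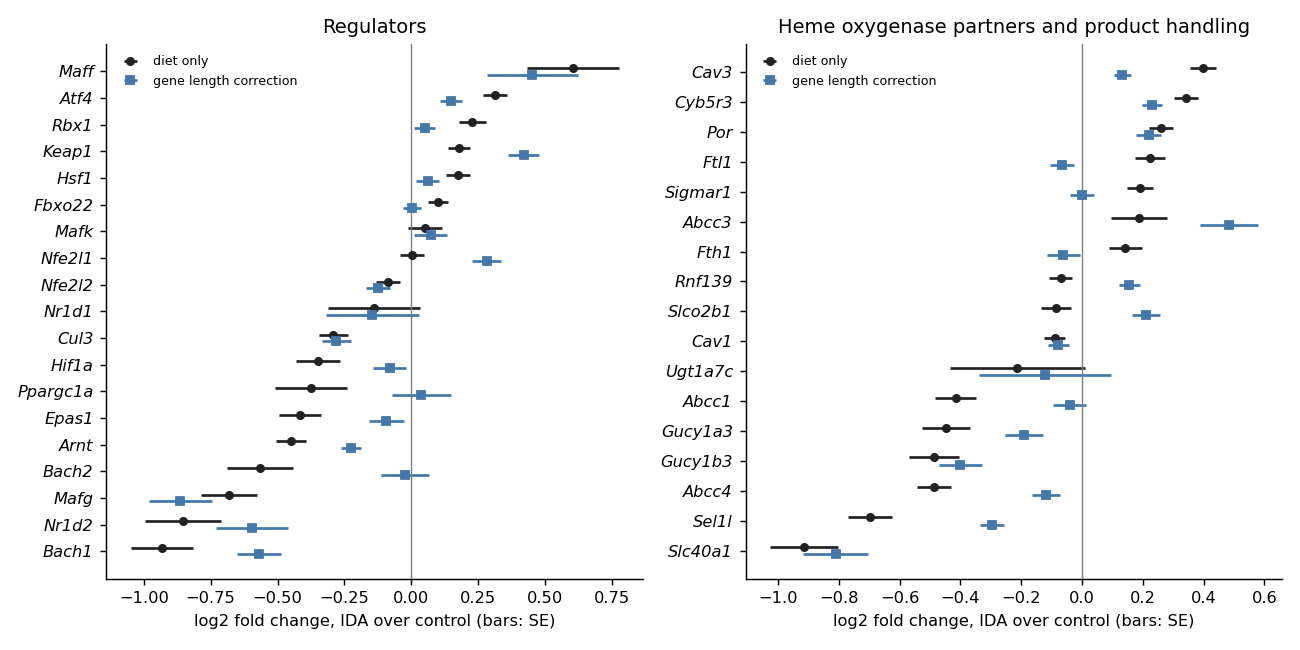
Log2 fold change with its SE (x axis) of the tested regulators (left) and the tested partners of heme oxygenase and genes that handle its products (right), under the diet-only fit (circles) and the length correction (squares). Bach1 is lowest of the regulators at -0.93 and Slc40a1 lowest of the partners at -0.91 in the diet-only fit.

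The partners of heme oxygenase and the genes that handle its products moved in both directions too, with 6 of 17 higher and 7 lower (median log2 fold change -0.085) against 35.0% and 32.5% of all genes. Under the length correction 6 and 5 were called, against 31.5% and 23.5%. Por, the reductase that feeds electrons to heme oxygenase, rose from 110.2 ± 7.20 to 131.8 ± 6.16 CPM (log2 fold change 0.26, adjusted p = 6.7e-06, edgeR), with no overlap between the groups. It was 0.22 with the length correction and was not called with the length and GC correction (0.071, adjusted p = 0.168, edgeR). Cyb5r3, cytochrome b5 reductase, rose by 0.34, and by 0.23 and 0.097 with the corrections. Cav3, the muscle caveolin, rose by 0.40 and by 0.13 with the length correction, and was not called with length and GC (0.0030, adjusted p = 0.937, edgeR). Slc40a1, ferroportin, which exports the iron, fell from 74.5 ± 9.84 to 39.6 ± 9.43 CPM (log2 fold change -0.91, adjusted p = 6.0e-07, edgeR), and all 10 IDA mice lay below all controls. Its log2 fold change was -0.81 with the length correction and -0.73 with length and GC. Sel1l, of the degradation machinery of the endoplasmic reticulum, fell by 0.70 (-0.30 and -0.24 with the corrections). The exporter Abcc4 fell by 0.49 (-0.12 with the length correction), and was not called with length and GC (-0.097, adjusted p = 0.0838, edgeR).

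Among 19 regulators of the Bach1 and Nrf2 axis, 6 were higher and 9 lower (median log2 fold change -0.14), against 35.0% and 32.5% of all genes. After the length correction 4 and 6 were called, against 31.5% and 23.5%. Bach1, the repressor of Hmox1, fell from 104.6 ± 17.5 to 54.8 ± 12.5 CPM (log2 fold change -0.93 ± 0.12, adjusted p = 6.4e-07, edgeR), and all 10 IDA mice lay below all controls. It was -0.57 with the length correction and -0.51 with the length and GC correction. Mafg, its DNA binding partner, fell by 0.68 (-0.86 and -1.08 with the corrections). Nr1d2, a heme binding nuclear receptor, fell by 0.85 (-0.60 and -0.47 with the corrections). Maff rose by 0.60, Atf4 by 0.31 and Rbx1 by 0.23, and none of the 3 held its call with both corrections. Maff (0.30, adjusted p = 0.171, edgeR) and Atf4 (0.037, adjusted p = 0.482) were not called with length and GC, and Rbx1 was not called with length (0.050, adjusted p = 0.296) but was with length and GC (0.13, adjusted p = 0.0136). Nfe2l2, which encodes Nrf2, was not called (log2 fold change -0.087, adjusted p = 0.0819, edgeR), was called lower with the length correction (-0.12, adjusted p = 0.0197) and not with length and GC (0.039, adjusted p = 0.391). Keap1, which marks Nrf2 for degradation, rose by 0.18, and by 0.42 and 0.20 with the corrections.

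Of 26 other targets of Nrf2, 18 were higher and 3 lower without the correction (median log2 fold change 0.22), where 35.0% and 32.5% of all genes were. With the length correction 8 were higher and 3 lower (median 0.0069), where 31.5% of all genes were higher, so the higher share was near the background. Osgin1 rose by 0.41, Tkt, transketolase, by 0.38 and Cbr1, a carbonyl reductase, by 0.35, and of these 3 only Tkt was also called with the length correction (0.46) and with length and GC (0.31). Gclc, which acts in glutathione synthesis, fell by 0.47 (-0.36 and -0.34 with the corrections). Aox1 fell by 0.53 (-0.30 and -0.22). Txnrd1 fell by 0.15 and was called with neither correction (0.034, adjusted p = 0.546, and 0.0046, adjusted p = 0.944, edgeR).

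Across the 20 mice, after group means were subtracted, Hmox2 and Slc48a1 varied most alike among the 8 genes (r = 0.80, and 0.63 on length-corrected values), and Hmox2 and Flvcr1 most in opposition (r = -0.73, and -0.62). Over all tested genes the closest to each were Nts and Pgm1 for Hmox1 (r = 0.89 and 0.88), Aamdc and Gsta4 for Hmox2 (both 0.94), Tspo and Prdx4 for Blvra (both 0.91) and Mkrn1 and AI662270 for Blvrb (0.80 and 0.78). For Flvcr1 they were Polk and Lcorl (0.91 and 0.85), for Flvcr2 Epb4.1l3 and Dsg2 (0.90 and 0.88), for Slc48a1 Snx17 and Puf60 (both 0.93), and for Lrp1 Adap2 and Helz2 (0.87 and 0.85). Genes measured in the same libraries share the depth of each library and the trend on length, so these values are a description.

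Cardiomyocyte markers summed to between 5946 and 7097 CPM in controls and between 5423 and 7335 CPM in IDA, the highest sum of any marker list. Of these 12 markers, 6 were called higher and 1 lower, against 35.0% and 32.5% of all genes. With the length correction 3 were called higher and 7 lower, against 31.5% and 23.5%. Platelet markers were higher in IDA (6 of 6 tested, and 6 after the length correction), as were neutrophil markers (3 of 3, and 2 after it), against 35.0% and 31.5% of all genes. Hepatocyte markers were not called, but their sum varied widely among mice. It ran from 0.98 to 70.8 CPM in controls and from 2.36 to 141.3 CPM in IDA. Lung markers stayed below 1 CPM in sum. Their part in the results above was not tested.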

How the data were processed

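Poly(A)-selected RNA of whole hearts from 20 mice was sequenced in pairs. After STAR alignment to mm10 and removal of duplicates with samtools, the authors deposited raw counts of read pairs over the exons of each gene (featureCounts 1.4.5-p1, no strand), with exonic lengths. Totals ran from 6797180 to 8960688 in controls and from 6682177 to 7833916 in IDA. No replicates agreed within sampling noise (chi-square per degree of freedom at least 1.50). The study left out a mouse per group as contaminated, and the labels do not name it, so all 20 were kept and fits without each mouse were compared.

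Genes reaching 1 CPM in 10 or more mice entered the tests in R 4.3.3 with edgeR 4.0.16 (TMM factors, quasi-likelihood test, diet as factor, Benjamini-Hochberg over 13590 genes, threshold 0.05). DESeq2 1.42.0 and voom in limma 3.58.1 were alternatives, as were other factors, filters, covariates and fits without single mice or pairs. The length correction subtracted a loess curve (span 0.5, degree 1) of each mouse's deviation on log2 exonic length. The length and GC correction, the fits by library number and the fits joining covariates to the length correction were added after the data were seen. GC content was known for 99.2% of tested genes. Ratios used a prior count of 0.5, and permutation tests 100000 resamples (scipy 1.17.1). Steps were tested on simulated data.

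Named genes are the 8 heme genes, Hpx, Hp, Cd163, Por, Bach1, Nfe2l2 and Keap1, up to 3 higher and 3 lower called genes per list by log2 fold change, and the 2 genes most alike to each of the 8. Not every gene under this rule is reported. The 8 genes and the lists were chosen with earlier results of these data known.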

Additional observations from a re-analysis of the deposited data

Results flagged for a closer look

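Among 22 groups of 10 values tested for a mouse far from the others, 4 were picked out, where chance picks out about 1 in 20 groups. Hmox1 reached 29.6 CPM in control replicate 6, with the next control at 22.9 CPM. Hmox1 reached 48.7 CPM in IDA replicate 5, with the next IDA mouse at 31.1 CPM, and in the same mouse the log2 ratio of Hmox1 to Hmox2 was -0.76 against -1.57 in the next. Blvrb reached 55.9 CPM in IDA replicate 9, with the next at 42.2 CPM, and that mouse also had the highest erythroid marker mean (6.39). No explanation of these values was tested.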

How the results depend on the processing

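Slc48a1 kept direction and call in all 22 alternative settings, Blvrb in 21, Flvcr2 in 20 and Blvra in 19. The length correction gave log2 fold changes of -0.024 for Hmox2, -0.19 for Flvcr1 and 0.59 for Lrp1 and a Blvra to Blvrb difference of -0.22, with 1 of the 8 genes called lower, 3 heme capture genes called lower and 8 Nrf2 targets called higher. Of all genes, 4281 were called higher and 3193 lower. The length and GC correction gave -0.050 for Hmox1, -0.10 for Hmox2, -0.064 for Flvcr1 and 0.33 for Lrp1, with 2665 of all genes and 2 heme capture genes called lower. It called 3799 of all genes and 8 Nrf2 targets higher. The causes were not tested.

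Lrp1 was called at -0.19 with DESeq2, at -0.18 with the macrophage covariate and at -0.22 with the library number range as covariate. The erythroid covariate gave -0.095 for Hmox1, -0.59 for Flvcr2, which was not called, and -0.73 for Flvcr1, the 1 gene of the 8 called lower. Of all genes, it called 3529 higher and 3492 lower. Only 1 of the 8 was called lower too with a filter of 10 CPM, which leaves Flvcr1 untested, with library size alone (Flvcr1 -0.33), and with the study's rule that both tools reach p below 0.01 (Flvcr1 -0.38). Over all genes, 3724, 3938 and 3973 were called lower in these settings, in that order. The library size covariate gave 0.44 for Hmox1, 0.096 for Hmox2 and -0.19 for Flvcr1, with 1 of the 8 called lower, and called 3959 of all genes higher and 3961 lower. The erythroid covariate with the length correction gave -0.31 for Hmox1, 0.022 for Hmox2, 0.15 for Blvra, -0.081 for Blvrb, -0.50 for Flvcr1, -0.45 for Flvcr2 and 0.63 for Lrp1. It called 2 of the 8 higher and 0 lower (Flvcr1 had an adjusted p of 0.0896 in edgeR), 2914 of all genes higher and 2086 lower, 6 heme capture genes higher and 2 lower, 3 partners lower, 2 regulators higher and 2 Nrf2 targets higher.

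Among mice of the higher library numbers, Hmox2 was 0.087, Flvcr1 -0.12 and Lrp1 -0.38, the Hmox1 to Hmox2 difference 0.12, the Blvra to Blvrb difference -0.21 and the Flvcr1 to Flvcr2 difference 0.64. There 2635 genes were called higher, with 7 heme capture genes, 3 partners, 1 regulator and 5 Nrf2 targets. With the length correction as well, Hmox2 was -0.14, Blvra 0.16, Flvcr1 0.074 and Lrp1 0.42, and the 3 ratio differences 0.15, -0.16 and 0.72. It called 1 of the 8 lower, 2090 genes higher and 1824 lower, 5 heme capture genes higher and 2 lower, and 1 partner, 1 regulator and 2 Nrf2 targets higher. Among mice of the lower numbers, the Blvra to Blvrb difference was -0.30. With the length correction as well, it was -0.24, and Hmox1 was -0.059, Hmox2 0.064, Blvra 0.13, Flvcr1 -0.36 and Lrp1 0.64. It called 1 of the 8 lower, and 3417 of all genes higher and 2419 lower. Of the lists, it called 7 heme capture genes higher and 3 lower, 4 partners lower, 3 regulators higher and 5 lower, and 6 Nrf2 targets higher and 1 lower. These fits hold fewer mice. The range covariate with the length correction, over all mice, gave -0.026 for Hmox1, -0.018 for Hmox2, -0.19 for Flvcr1 and 0.55 for Lrp1, and called 1 of the 8 lower, 4 partners lower and 7 Nrf2 targets higher. Of all genes, this fit called 4273 higher and 3161 lower.

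Mice with the same replicate number did not vary alike throughout, as the correlation of their deviations ran from -0.28 to 0.26. These correlations cannot exclude a pairing, and whether the numbers pair the mice is not known. With the replicate block, Lrp1 was called at -0.18. The replicate block with the length correction gave -0.048 for Hmox1, -0.023 for Hmox2, -0.20 for Flvcr1 and 0.58 for Lrp1, and called 1 of the 8 lower, 7 heme capture genes higher, 4 partners lower and 6 Nrf2 targets higher.

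In 20 fits without 1 mouse, Flvcr1 ran from -0.45 to -0.32 and Lrp1 from -0.22 to -0.14, the Blvra to Blvrb difference from -0.32 to -0.21, and 1 to 3 of the 8 were called lower. Of all genes, 4276 to 4479 were called lower there. In 100 fits without a mouse of each group, Flvcr1 ran from -0.49 to -0.27 and lost its call in 34, Lrp1 ran from -0.24 to -0.11 and was called in 30, and 1 to 3 of the 8 and 4124 to 4500 of all genes were called lower. Hmox1 was called in none of these fits and ran from 0.034 to 0.26 and from 0.0062 to 0.30, and the other 5 genes kept their calls. Depth was lowest for Flvcr1 and Flvcr2, at 36 and 49 read pairs in their lowest mice.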
